A study of Mus musculus with 6 samples.

Results

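Brd2, Brd3 and Brdt, genes of the bromodomain and extraterminal (BET) family of histone readers, were followed in RNA from whole testes. They were chosen by symbol, as readers of acetylated histone H4, and are 3 of the 53700 genes counted. The 6 libraries came from mice of the strain labelled Msl3em1Forni/C57BL/6J at postnatal day 45. Of these mice, 3 had the label Msl3 wild type (WT) and 3 the label Msl3 floxed conditional knockout (cKO). A floxed allele has recognition sites around part of a gene, which a recombinase can then cut out. The recombinase line and the part of Msl3 between the sites are not given in the sources used here.

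BET proteins carry a pair of bromodomains, which bind acetylated lysines of histone tails, and an extraterminal domain, which binds other proteins. At active genes they help to bring in the elongation kinase P-TEFb, which releases paused RNA polymerase II. Brd2 and Brd3 are transcribed in many tissues, whereas Brdt is the testis member, present in spermatocytes and spermatids. Its first bromodomain binds histone H4 that is acetylated on neighbouring lysines. Brdt is required for meiotic gene expression and for the removal of histones from spermatid chromatin. Msl3 belongs to the male-specific lethal complex, whose acetyltransferase Kat8 acetylates histone H4, so the comparison asks whether genes for readers of that histone differ between the labelled groups.

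The 3 genes lie on different chromosomes in the GENCODE M21 annotation of GRCm38, the assembly also called mm10. Brdt (ENSMUSG00000029279) spans chr5:107331159-107387058 on the plus strand and has 4 annotated transcripts, the longest with 19 exons and 4745 bases. Brd3 (ENSMUSG00000026918) spans chr2:27445579-27507662 on the minus strand and has 10 transcripts, the longest with 12 exons and 5419 bases. Brd2 (ENSMUSG00000024335) is compact, spanning chr17:34112023-34122634 on the minus strand, a span of 10.6 kb against 55.9 kb for Brdt and 62.1 kb for Brd3. It has 19 annotated transcripts, the longest with 13 exons and 4657 bases. The longest transcript had a GC content of 45% for Brdt, 51.3% for Brd3 and 57.7% for Brd2.

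Windows at transcript starts are shown to set the testis member beside the widely transcribed ones, since the scaled levels of all 3 genes, though called for none, had a higher mean in the libraries labelled cKO (values below). Each window is from RefSeq (GRCm38.p6) and runs from 250 bases before to 50 bases after a transcript start, in the direction of the gene. Capitals mark matches on either strand to 5 motifs chosen after the sequences had been seen: the CCAAT box, the E-box CACGTG, the TATA box TATAAA, the cAMP response element TGACGTCA and the sequence CAACTG, a core bound by MYB factors. The Brdt window is chr5:107330944-107331243 on the plus strand, the Brd3 window chr2:27475349-27475648 on the minus strand, and the Brd2 window chr17:34122558-34122857 on the minus strand, the most upstream of the 3 windows listed for Brd2. The Brd3 window lies at a transcript start inside the annotated span of that gene, whose upstream end is at 27507662.
Brdt: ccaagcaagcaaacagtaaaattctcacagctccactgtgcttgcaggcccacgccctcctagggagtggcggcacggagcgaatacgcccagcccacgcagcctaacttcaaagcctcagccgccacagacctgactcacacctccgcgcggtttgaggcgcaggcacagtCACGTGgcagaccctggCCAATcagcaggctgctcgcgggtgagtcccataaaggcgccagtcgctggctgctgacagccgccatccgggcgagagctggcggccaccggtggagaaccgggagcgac
Brd3: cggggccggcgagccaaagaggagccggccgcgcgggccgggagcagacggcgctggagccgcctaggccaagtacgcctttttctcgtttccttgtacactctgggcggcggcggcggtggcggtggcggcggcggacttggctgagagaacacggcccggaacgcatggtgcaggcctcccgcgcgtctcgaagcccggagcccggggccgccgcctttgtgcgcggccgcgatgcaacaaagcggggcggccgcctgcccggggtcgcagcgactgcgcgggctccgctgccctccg
Brd2: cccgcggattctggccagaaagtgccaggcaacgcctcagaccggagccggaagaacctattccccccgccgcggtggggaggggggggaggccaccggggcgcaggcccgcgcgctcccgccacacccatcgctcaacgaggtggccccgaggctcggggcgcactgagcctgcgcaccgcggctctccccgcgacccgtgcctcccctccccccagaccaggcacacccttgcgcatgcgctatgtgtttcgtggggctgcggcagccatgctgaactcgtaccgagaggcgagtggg
The Brdt window holds 23 CpG dinucleotides, fewer than the 46 of Brd3 and the 32 of this window of Brd2. The other Brd2 windows hold 24 and 14, so the order of Brdt and Brd2 depends on the window. All of them exceed the median of 7 over 32851 windows of the same length. Brdt has 1 match to CCAAT, found in 37.4% of all windows, and 1 to CACGTG, found in 7.15%, with no overlap between them. Neither the Brd3 window nor this window of Brd2 holds a match to any of the 5 motifs. A match is a description of the letters and not evidence that a factor binds there.

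The libraries held 56991431 to 73766444 reads assigned to genes, of which 10121 to 36732 fell on each of the 3 genes, so that counting error alone was at most 0.994% of a value. Levels are given in CPM, reads scaled to a common library size, with library sizes scaled by the trimmed mean of M values (TMM). As a check on the labels, Msl3 itself had 829 to 1226 reads per library and a log2 fold change of -0.12 (SE 0.088, edgeR adjusted p 0.551), so no lowering of its count was detected. Gene counts cover every exon and cannot show the loss of a single one. WT and cKO below therefore mean the labels, and a difference is that of the libraries labelled cKO from the others. Markers of the germ cell stages and of the somatic cells of the testis were present in all libraries, with no listed marker at 0 reads in any of them.

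Brdt was an abundant transcript of these testes. Its level was 306, 292 and 294 CPM in WT replicates 1, 2 and 3 and 316, 344 and 315 CPM in cKO replicates 1, 2 and 3. Each cKO library was above each WT library, with cKO replicate 2 the highest and WT replicate 1 closest to the cKO group. The means were 297.3 ± 7.60 CPM (SD, n = 3) and 325.0 ± 16.5 CPM (SD, n = 3), which edgeR's quasi-likelihood test gave as a log2 fold change of 0.13 (SE 0.066, adjusted p 0.399). Relative to WT, this is 109%, and its 95% limits are 99.0% and 121%. Brdt did not pass the threshold of 0.05.

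Brd3 had the largest fold difference of the 3, though not the largest in CPM. It stood at 178, 157 and 163 CPM in WT replicates 1, 2 and 3 and at 184, 202 and 186 CPM in cKO replicates 1, 2 and 3. The groups did not overlap, although WT replicate 1 lay close to cKO replicate 1. The means were 165.9 ± 11.02 CPM (SD, n = 3) and 190.6 ± 9.54 CPM (SD, n = 3). The log2 fold change was 0.20 (SE 0.072). The unadjusted edgeR p was 0.0169 and the adjusted p was 0.306, so Brd3 was not called. Relative to WT, this is 115%, and its 95% limits are 103% and 128%.

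Brd2 had the smallest fold difference of the 3. It stood at 481, 450 and 475 CPM in WT replicates 1, 2 and 3 and at 504, 504 and 481 CPM in cKO replicates 1, 2 and 3. The highest WT and the lowest cKO library were level to 3 digits, so the groups touched. The means were 468.7 ± 16.1 CPM (SD, n = 3) and 496.2 ± 13.4 CPM (SD, n = 3). The log2 fold change was 0.08 (SE 0.063, edgeR adjusted p 0.582). Relative to WT, this is 106%, and its 95% limits are 96.2% and 116.5%.

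**Figure D1:**
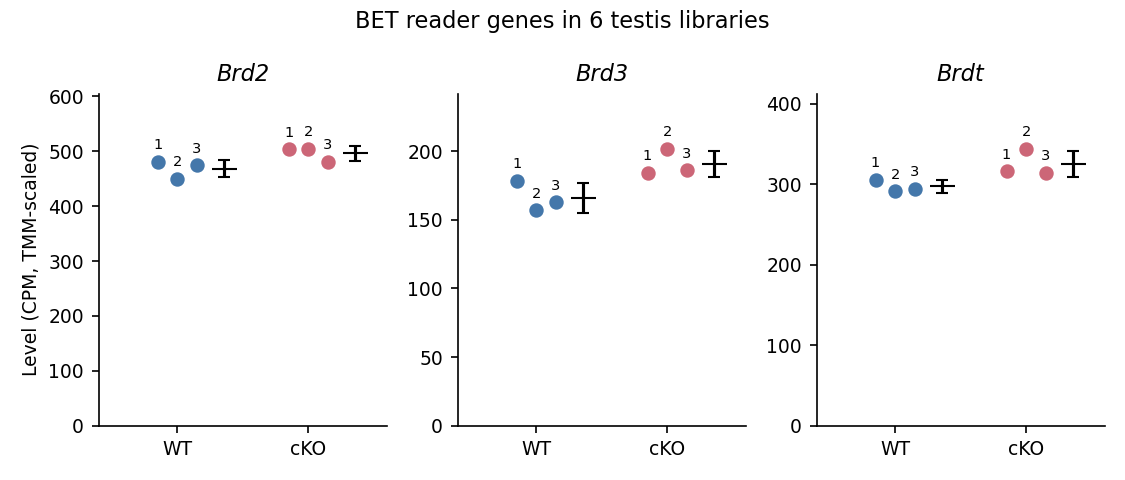
Level of each BET gene in every library, in CPM with TMM-scaled library sizes on a linear axis from 0; coloured points are libraries numbered by replicate, and the black bar beside them is the mean with its SD (n = 3). Brdt and Brd3 lie higher in the 3 cKO libraries than in the 3 WT libraries, at 109% and 115% of the WT level, and the Brd2 groups touch at 481 CPM.

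Of the 3 genes, 0 passed the adjusted threshold, and of all 21902 genes tested 4 did (0.0183%, 2 higher and 2 lower). At an unadjusted p under 0.05 there was 1 of 3, Brd3, against 7.33% of all genes tested that were higher at that p. All 3 had every cKO library above every WT library, Brd2 by a margin that vanishes at 3 digits, and 10% of all genes did. In whole testis, more cells that transcribe a gene and more RNA per cell cannot be told apart. On the log2 scale, the 95% limits ran from -0.06 to 0.22 for Brd2, from 0.04 to 0.36 for Brd3 and from -0.01 to 0.27 for Brdt, so the fit leaves room for changes of these sizes, including no change for Brd2 and Brdt.

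The 3 genes varied little between mice of a group. The SD of log2 CPM within groups was 0.045 for Brd2, 0.057 for Brdt and 0.084 for Brd3. A larger SD was found in 95.8%, 91.5% and 76.8% of the genes tested, respectively. These shares are over genes of all levels, including those with few reads, and genes of like CPM were not compared separately. Over all 6 libraries, the highest level was 1.12 times the lowest for Brd2, 1.18 times for Brdt and 1.29 times for Brd3.

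To compare levels between the genes, they were divided by length. Per kilobase of annotated exon, Brd2 stood at 59.9 ± 2.06 CPM (SD, n = 3) in WT libraries and 63.4 ± 1.72 CPM (SD, n = 3) in cKO libraries. Brdt stood at 58.1 ± 1.49 CPM per kilobase (SD, n = 3) and 63.5 ± 3.22 CPM per kilobase (SD, n = 3), within the spread of Brd2. Brd3 stood at 22.6 ± 1.5 CPM per kilobase (SD, n = 3) and 26.0 ± 1.30 CPM per kilobase (SD, n = 3), below both. The order of Brd2 and Brdt depended on the length used. Per kilobase of the longest transcript alone, Brd2 had a mean of 104 CPM, Brdt of 65.6 CPM and Brd3 of 32.9 CPM over the 6 libraries. Per kilobase of exon, 94.9% of the genes tested were below Brdt, 94.9% below Brd2 and 87.7% below Brd3.

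Ratios within a library do not depend on how libraries are scaled. Reads of Brdt per kilobase of exon were 0.974, 0.990 and 0.948 times those of Brd2 in WT replicates 1, 2 and 3, and 0.962, 1.04 and 1.00 times in cKO replicates 1, 2 and 3. The groups overlapped, and the mean log2 ratio differed by 0.05 (exact two-sided permutation p = 0.4, Benjamini-Hochberg adjusted over the 3 ratios 0.4). The ratio of Brdt to Brd3 was 2.46, 2.67 and 2.59 in WT and 2.46, 2.45 and 2.43 in cKO libraries. Its mean log2 value was 1.36 ± 0.058 (SD, n = 3) and 1.29 ± 0.011 (SD, n = 3), and the groups met at WT replicate 1 and cKO replicate 1 (exact permutation p = 0.2, adjusted 0.3). The ratio of Brd3 to Brd2 was 0.395, 0.371 and 0.366 in WT and 0.390, 0.426 and 0.413 in cKO libraries (exact permutation p = 0.2, adjusted 0.3). With 3 libraries against 3 the exact p cannot go below 0.1, so these tests cannot show that the balance between the genes was kept.

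**Figure D2:**
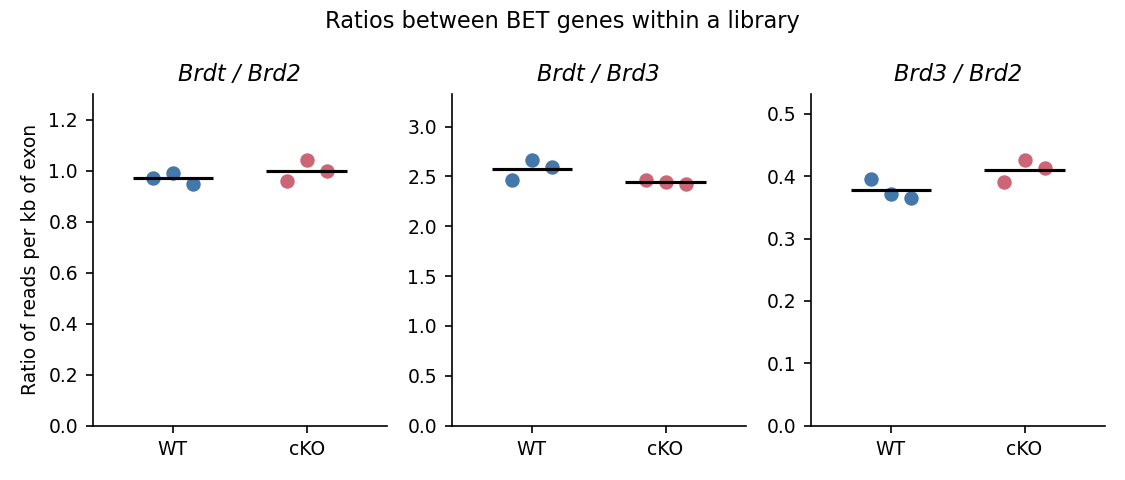
Ratios of reads per kilobase of annotated exon between the BET genes within each library, on linear axes from 0; points are libraries and bars are the means of the log ratios (n = 3 per group). Brdt and Brd2 lie near 1 to 1 in all libraries, from 0.948 to 1.04, and the groups overlap in each of the 3 ratios.

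The strand and the neighbours of the genes bear on their counts. Only 0.453% to 0.701% of the stranded reads of Brdt, 0.421% to 0.959% of those of Brd3 and 0.996% to 1.34% of those of Brd2 lay on the strand opposite to the one counted. Brd2 shares 360 exonic bases with H2-DMa, an MHC class II accessory gene on the other strand, and 405 with CR974462.3, an antisense gene. H2-DMa had 524 to 821 reads and a log2 fold change of -0.05, and CR974462.3 had 9 to 24 reads, both far below Brd2. None of the 75-base sequences of Brdt and Brd3 transcripts occurred in transcripts of another gene, against 7.0% of those of Brd2. The pseudogene Gm8152 within the Brdt span had at most 2 reads in a library and Mir7578 within Brd3 at most 1.

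Genes with related roles were compared from 6 lists, 65 genes in all, each of which was tested. With edgeR over all genes, 0 of the 65 passed the adjusted threshold, 21 were higher and 4 lower at an unadjusted p under 0.05 (7.33% and 6.54% of all genes), and the smallest adjusted p was 0.276. Their median log2 fold change was 0.10, against 0.00311 over all genes tested. DESeq2, a second tool, called 2 of them, both lower: Hmgb4 (adjusted p 0.0424) and Tnp1, a transition protein named after its values were seen (adjusted p 0.0276). Over all genes, DESeq2 called 194 of 13185. Without cKO replicate 1, edgeR called 16 of the list genes (15 higher, 1 lower), and 628 of all 22255 genes tested there (549 higher). Without WT replicate 1 it called 1 list gene, Tnp1, and 116 of all 22392.

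In the P-TEFb list all 7 genes had positive values, with a median log2 fold change of 0.10, and 1 had an unadjusted p under 0.05. Without WT replicate 2 the median was 0.064, with 6 of 7 positive and 0 at an unadjusted p under 0.05, and without cKO replicate 1 5 of 7 were positive. Cdk9, the kinase subunit, stood at 30.8 ± 1.02 CPM (SD, n = 3) in WT and 31.2 ± 2.09 CPM (SD, n = 3) in cKO libraries, with a log2 fold change of 0.02. Its cyclin partners Ccnt1 and Ccnt2 had 0.10 and 0.08, and the inhibitors Hexim1 and Hexim2 had 0.13 and 0.04. Larp7, which binds the 7SK RNA that holds P-TEFb inactive, had the highest CPM of the list, at 316 ± 15.9 CPM (SD, n = 3) and 358 ± 20.6 CPM (SD, n = 3). Its log2 fold change was 0.18 (SE 0.070, edgeR adjusted p 0.313), with no overlap between the groups.

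Enzymes that write and erase the marks read by BET proteins gave mixed values. Of the 6 acetyltransferases, 2 were higher and 1 lower at an unadjusted p under 0.05, and 0 either way once cKO replicate 2 was left out. Crebbp and Ep300, related coactivators, had log2 fold changes of 0.38 (SE 0.13) and 0.32 (SE 0.13) with overlapping groups. Kat8, the enzyme of the Msl3 complex, had -0.15 (SE 0.064, edgeR adjusted p 0.342), whereas Kat5 and Kat7 had -0.05 and 0.09. Among the 4 class I deacetylases Hdac1 and Hdac3 had 0.01 and 0.02, and Hdac2 had 0.16 with an edgeR adjusted p of 0.349. The 7 described partners of Brdt had a median of 0.04, and 0 of them had an unadjusted p under 0.05. They ranged from -0.02 for the splicing factor Srsf2 to 0.07 for Smarce1, a subunit of SWI/SNF remodellers, and Ddx5, an RNA helicase with the highest CPM of the list, had 0.06.

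Other proteins with a bromodomain formed the list with the most positive values. All 30 had a log2 fold change above 0, with a median of 0.22. A value above 0 was found in 50.7% of all genes tested and in 79.1% of those with the longest transcripts, the length bin of most of the list. At an unadjusted edgeR p under 0.05, 16 (53.3%) were higher, against 7.33% of all genes and 23.7% of that bin. List genes higher at that p numbered 6 without WT replicate 3, 7 without cKO replicate 2 and 10 without cKO replicate 3. The list median was 0.14 without cKO replicate 2. In 11 of the 30 (36.7%) every cKO library lay above every WT library, as in 10% of all genes and in 24.2% of that bin. Baz1b, a chromatin remodelling subunit, stood at 40.8 ± 2.59 CPM (SD, n = 3) and 48.9 ± 1.23 CPM (SD, n = 3), so that its log2 fold change was 0.26 (SE 0.071, edgeR adjusted p 0.276). Baz2a, with the highest CPM of the list, stood at 286 ± 8.66 CPM (SD, n = 3) and 347 ± 65.9 CPM (SD, n = 3) with overlapping groups. The mean log2 CPM of the 30 genes was 5.78, 5.77 and 5.76 in WT replicates 1, 2 and 3 and 5.81, 6.12 and 5.99 in cKO replicates 1, 2 and 3. Replicates 2 and 3 of the cKO group were thus high and cKO replicate 1 was close to the WT libraries.

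Chromatin proteins of spermatids, the cells in which Brdt compacts acetylated chromatin, had mostly negative values. Of the 11 genes 7 lay below 0 and 4 above, with a median of -0.12 (-0.070 without cKO replicate 3, or -0.054 with WT replicate 2 left out). The gene at that median had only 93 to 138 reads per library and an SE of 0.153. In the bin of the shortest transcripts, which holds 9 of the 11, 23.95% of genes lay above 0 and the median was -0.14. The list was thus no more negative than the genes of that bin. At an unadjusted edgeR p under 0.05, 3 were lower and 1 higher (5 lower once cKO replicate 1 was left out), against 6.54% lower and 7.33% higher of all genes. Hmgb4, a spermatid chromatin protein, stood at 398 ± 19.6 CPM (SD, n = 3) and 334 ± 10.2 CPM (SD, n = 3), so that its log2 fold change was -0.25 (SE 0.066, edgeR adjusted p 0.276). Prm2, a protamine and the gene of the list with the highest CPM, had a log2 fold change of 0.00396. Summed round spermatid markers (10 of 10 measured) ranged from 1907 to 2011 CPM in WT and from 1728 to 1860 CPM in cKO libraries, without overlap. By log2 fold change, 8 of these markers were lower and 2 higher. In 2 of the 10 every cKO library lay below every WT library, as in 1938 of all 21902 genes tested. Their mean log2 CPM was 7.213 to 7.345 in WT and 7.126 to 7.191 in cKO libraries. Summed spermatocyte markers (10 of 10), of the stage at which Brdt is made, ranged from 9151 to 9177 CPM and from 8666 to 9310 CPM. Summed endothelial markers (6 of 6) ranged from 41.0 to 41.7 CPM and from 42.6 to 51.6 CPM, without overlap, and those of the other 6 lists overlapped. The endothelial separation depended on summing. The mean log2 CPM of these markers was 2.125 to 2.165 in WT libraries and 2.093, 2.308 and 2.439 in cKO replicates 1, 2 and 3. By log2 fold change, 5 of them were higher and 1 lower. The part of these markers in the values of Brd2, Brd3 and Brdt was not tested.

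**Figure D3:**
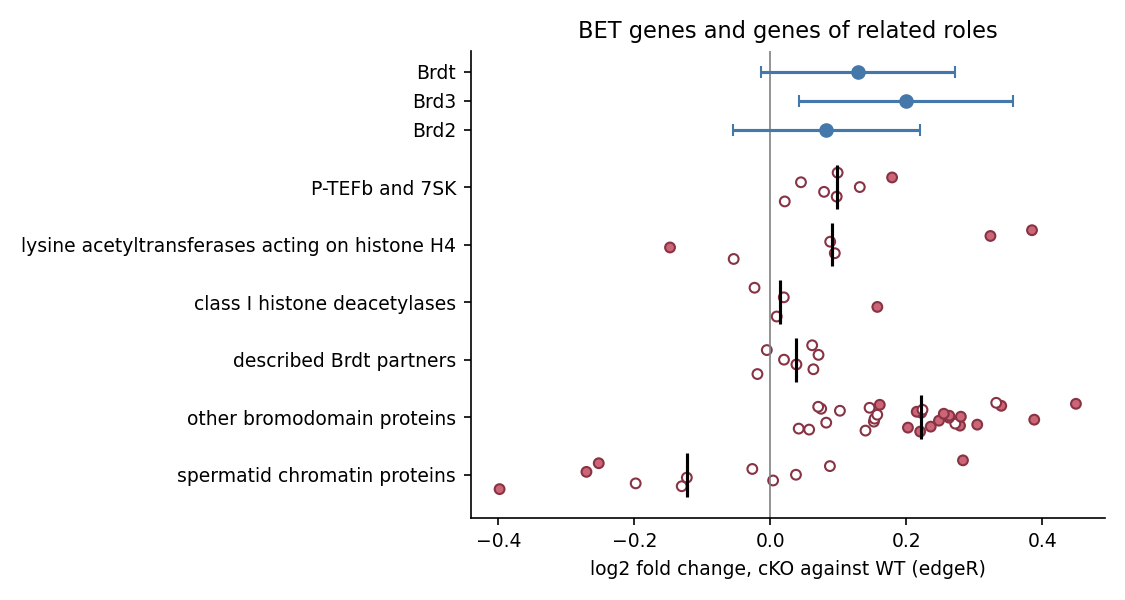
Log2 fold changes of cKO against WT from edgeR for the BET genes, with 95% limits, and for the genes of 6 related lists; filled circles have an unadjusted p under 0.05, open circles do not, and black bars are list medians. The 30 other bromodomain genes all lie above 0, with a median of 0.22, and the spermatid chromatin genes have a median of -0.12.

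Transcript length moved with these values. The tested genes were divided by their longest annotated transcript into 5 bins of 4366 to 4374 genes. The median log2 fold change was -0.14 in the shortest bin, then -0.05, 0.0043 and 0.05, and 0.12 in the longest. In the longest bin, of 4632 bases or more, 79.1% of genes had a log2 fold change above 0, 24.2% had every cKO library above every WT library, and 23.7% were higher at an unadjusted p under 0.05. Brd2, Brd3 and Brdt all belong to that bin, which also holds 24 of the 30 other bromodomain genes, while 9 of the 11 spermatid chromatin genes belong to the shortest. Of the genes in the longest bin, 47.4% had a higher log2 fold change than Brdt, 27.4% a higher one than Brd3 and 61.1% a higher one than Brd2. That bin reaches 123200 bases, and Brd2 (4657 bases) and Brdt (4745 bases) lie near its lower edge, so most of its genes are longer than they are. In the bin next to them, of 3202 to 4631 bases, 63.3% of genes lay above 0. Genes of like length were not compared separately. The longest bin deviated from its mean over libraries by a median of -0.05, -0.06 and -0.06 in WT replicates 1, 2 and 3 and by -0.03, 0.12 and 0.07 in cKO replicates 1, 2 and 3. It was high in cKO replicates 2 and 3 and low in the other 4 libraries. By GC content of the longest transcript, the median log2 fold change ran from -0.04 in the lowest of 5 bins to 0.04 in the highest. The share of genes above 0 was 41.3% in the lowest and 61.1% in the highest. Brd2, at 57.7% GC, belongs to the highest bin, of 54.78% or more, and Brdt, at 45%, to the bin from 43.55% to 47.21%.

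A correction of each library for GC content and transcript length, chosen after the data had been seen, lowered the values of all 3 genes. The log2 fold change was 0.09 (SE 0.060) for Brdt, 0.10 (SE 0.061) for Brd3 and -0.028 (SE 0.056) for Brd2, with edgeR adjusted p of 0.653, 0.609 and 0.907. The direction of Brd2 thus turned. The separate parts of GC content and of length in these changes were not tested. The median of the other bromodomain genes fell to 0.10, with 28 of 30 above 0, and those higher at an unadjusted p under 0.05 dropped from 16 to 4. The P-TEFb list had a median of 0.03, with 4 of 7 above 0, the Brdt partners one of 0.014 and the spermatid chromatin genes one of -0.04. Of the acetyltransferases, 0 had an unadjusted p under 0.05 there.

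**Figure D4:**
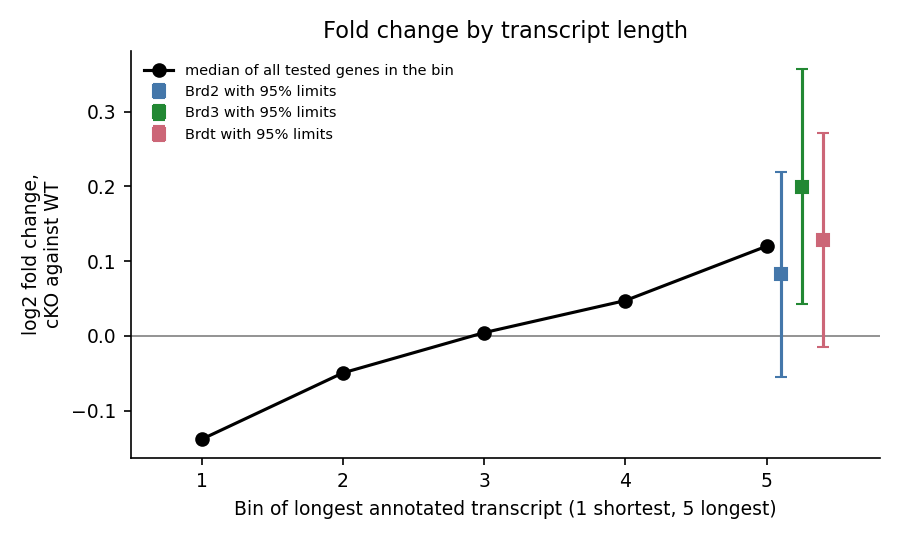
Median log2 fold change of all tested genes by bin of transcript length (black), with Brd2, Brd3 and Brdt beside the longest bin, to which they belong (squares with 95% limits from edgeR). The median runs from -0.14 in the shortest bin to 0.12 in the longest, and the 95% limits of all 3 genes include the median of their bin. Brd2 and Brdt lie near the lower edge of that bin in length.

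Genes with a pattern across the 6 libraries most like each BET gene were taken by the root mean square difference of log2 CPM, each gene centred on its own mean, over the 16829 other genes that averaged 1 CPM or more. Nearest to Brdt were Dnajc2 (0.0081) and Trim37 (0.012). Nearest to Brd3 were Efl1 (0.0096) and Cdk11b (0.011), and nearest to Brd2 were Taf6 (0.0098) and Dnali1 (0.013). These were picked as the nearest of all, so genes named beforehand cannot be judged against them. Among the 16829 genes, Brd2 had rank 672 and Brd3 rank 981 by nearness to Brdt, at 0.045 and 0.050. Brd2 and Brd3 lay 0.078 apart, at rank 3867 seen from Brd2 and 1679 seen from Brd3.

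Values of the 3 genes moved with single libraries but none was called. Without cKO replicate 2 the log2 fold change of Brdt was 0.09, and without each other library in turn it ranged from 0.11 to 0.15. That of Brd3 ranged from 0.16, without cKO replicate 2, to 0.26, without WT replicate 1. That of Brd2 ranged from 0.05, without WT replicate 2, to 0.105, without cKO replicate 3 (edgeR adjusted p of at least 0.140 for each of the 3 genes in these fits).

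**Figure D5:**
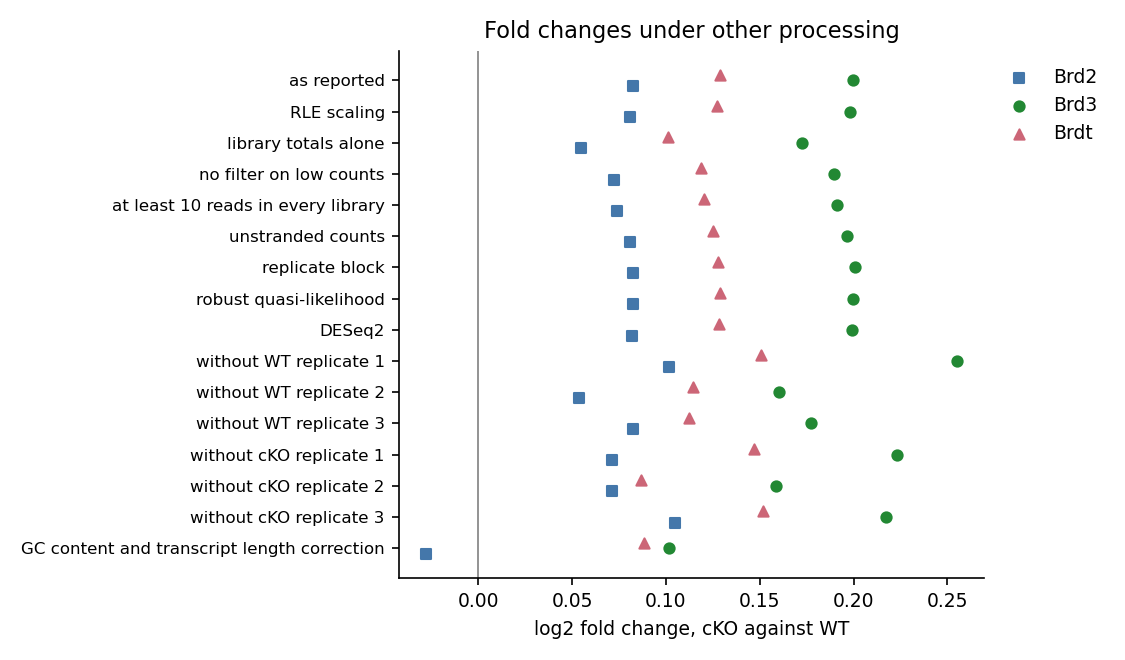
Log2 fold change of cKO against WT for Brd2 (squares), Brd3 (circles) and Brdt (triangles) as reported and under 15 other settings, one per line. All values of Brd3 and Brdt stay above 0, between 0.09 and 0.26, and Brd2 falls below 0 once, at -0.028, when libraries are corrected for GC content and transcript length.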

How the data were processed

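The authors deposited read counts per gene from whole testes, one table per library with 53700 genes. The submitters' processing notes name STAR, HTSeq and DESeq2 and the build mm10, without versions or roles. The annotation release is not given in the sources used here. Reads were single-end, 75 bp, per the labels' protocols. Opposite-strand counts (96.0% to 96.2% of stranded reads) were used. Lines for reads outside single genes, 14.8% to 16.8% of a library, were left out. GENCODE M21 matched 52147 identifiers.

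Counts were tested with edgeR 4.0.16 in R 4.3.3, by its quasi-likelihood F test between the groups with no covariate. Libraries were scaled by TMM, genes were kept by filterByExpr (minimum count 10) and p-values were adjusted by Benjamini-Hochberg over 21902 genes. Standard errors came from the F statistic. DESeq2 1.42.0 was an alternative. Members and lists were chosen with earlier results of these data known. Named genes are the members, the gene with the smallest p and the gene with the highest CPM of each list, members of the 4 short lists, the 2 nearest patterns per member, overlapping genes and Msl3. The test was checked on simulated counts.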

Additional observations from a re-analysis of the deposited data

How the results depend on the processing

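None of Brd2, Brd3 and Brdt was called under any of 15 alternatives each, of which the GC content and transcript length correction was added after the data had been seen. There Brd2 changed direction (log2 fold change -0.028), and the other values kept theirs. Deviations from the group means correlated by 0.38, 0.26 and -0.07 between WT and cKO libraries of the same number. Libraries of unlike number were not compared, so these values cannot settle whether the numbers pair mice. The labels call them biological replicates, and the main fit used no pairing. With a replicate block the log2 fold changes were 0.08 for Brd2, 0.20 for Brd3 and 0.13 for Brdt (edgeR adjusted p 0.526, 0.158 and 0.316). The 4 genes called over all genes became 757 without a filter on low counts, 2 with unstranded counts, 49 with the replicate block and 194 with DESeq2, and 1 to 628 when single libraries were left out. Of the related lists, 0 genes became 11 without the filter and 2 with DESeq2, and 0 to 16 without each library. Among the left-out libraries, both counts were highest without cKO replicate 1. The block changed no call of a member or a list gene, and no ratio could be called with or without it. The cause of these changes was not tested. The 3 ratios between members kept their direction in 9 alternatives each, with log2 differences of 0.02 to 0.07 for Brdt to Brd2, -0.10 to -0.05 for Brdt to Brd3 and 0.09 to 0.15 for Brd3 to Brd2. Among the 9, the length of the longest transcript and the replicate block could not move these differences, which they leave the same by arithmetic. Counting error was at most 0.994% of a value of the 3 genes.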
